A study of Mus musculus with 10 samples.

Results

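The window that holds Pparg on mouse chromosome 6, from 115200000 to 115550000 (mm8), was described across 6 deposited lists of ChIP-seq peaks and regions. Its members are every listed interval that overlaps these 350 kb, and there were 91 of them among 49015 intervals in all. The series profiled 3T3-L1, a mouse fibroblast line that turns into adipocytes in culture, and each library is 1 culture condition with no replicate. C/EBPβ was immunoprecipitated from undifferentiated cells (0 h) and from cells 6 h after differentiation was induced, and the glucocorticoid receptor (GR) at 6 h, with antibodies from 2 suppliers. Acetylated histone H3 lysine 9 (H3K9ac) was profiled in undifferentiated cells, at 24 h and at 10 days (240 h). The labels give the induction only as a standard protocol, in DMEM with serum and antibiotics, and name no genetic change. Factor lists held 21 members for C/EBPβ at 0 h, 41 for C/EBPβ at 6 h and 14 for GR, and the H3K9ac lists held 2 at 0 h, 2 at 24 h and 11 at 240 h.

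Pparg encodes PPARγ, the nuclear receptor that drives the adipocyte gene programme. In the textbook cascade, hormonal induction first engages C/EBPβ, a basic leucine zipper factor, and GR, a ligand-activated nuclear receptor, and both act before PPARγ and C/EBPα accumulate. H3K9ac marks active promoters and enhancers. The RefSeq promoter table used here (GRCm38.p6) gives 3 start sites for Pparg, all on the forward strand. That table is on another build than the lists, and the lists name no genes. No peak could therefore be assigned to a promoter, exon or intron of Pparg or to a neighbouring gene, and positions below are distances along the window. For the same reason the cell label was not checked against marker genes, and no sequence under a peak was read. Start sites were left out of the H3K9ac lists, whose regions were called by the authors as enriched at 1 time against another, so acetylation of the Pparg promoters themselves is not in these lists.

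The Pparg window was the most crowded of the genome for each of the 3 factor lists when the genome was tiled in windows of the same length. There were 7473 such windows. The window held 41 C/EBPβ peaks at 6 h against a mean of 2.77 and a median of 1 per window, a ratio of 14.8 to the mean, and only the window itself reached that number (0.0134% of windows). For C/EBPβ at 0 h it held 21 peaks against a mean of 1.38, and again 0.0134% of windows had at least as many. GR had 14 peaks there against a mean of 0.535, a ratio of 26.2, with the same 0.0134% of windows, and 73.6% of windows held no GR peak at all. Sites where C/EBPβ at 6 h overlapped GR numbered 12, against a mean of 0.362, and no other window of the tiling reached 12. The window was chosen with earlier results of these data known and the tiling starts on its own edges, so these ranks describe it and test nothing.

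Acetylated regions were less extreme. The 11 regions listed at 240 h compared with a mean of 1.05 per window, and 1.66% of windows had at least as many. The 2 regions at 24 h were matched or exceeded in 4.32% of windows, and the 2 at 0 h in 11.9%. In length, listed regions covered 2.55 kb of the window at 0 h, 2.95 kb at 24 h and 27.8 kb at 240 h. At least as many base pairs were covered in 11.6%, 3.45% and 1.28% of windows. The whole lists hold 4429, 1629 and 7845 regions, called as enriched at 1 time against another and without start sites. These lengths therefore do not measure how much of the window was acetylated at each time. Of all windows, 186 held at least 1 interval of every list, the Pparg window included. That it alone had at least as many in all 3 factor lists follows from its rank in each. The plot of intervals per window shows the 3 factor counts at the right-hand end of their distributions and the H3K9ac counts inside theirs.

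**Figure D1:**
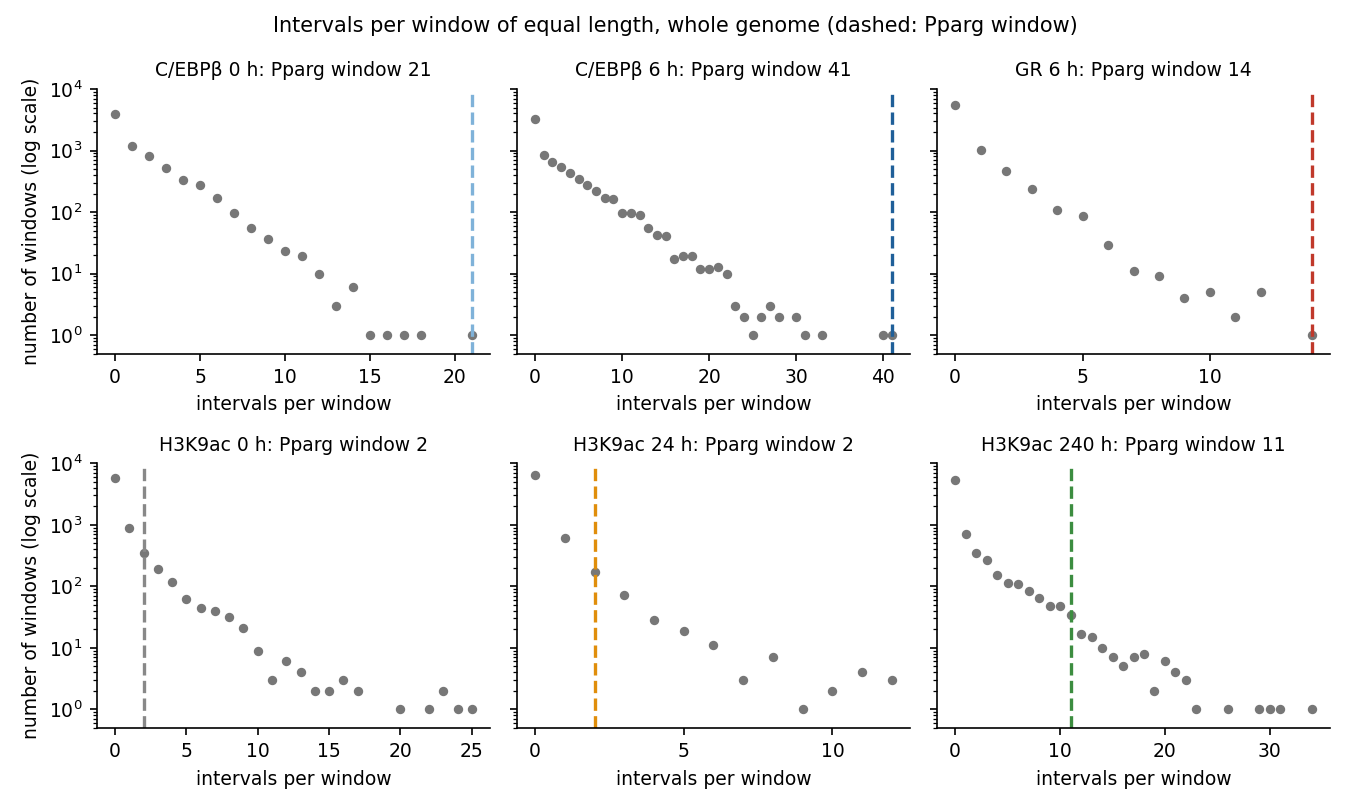
Number of genome windows of 350 kb (y axis, log scale) by the number of listed intervals they hold (x axis), 1 panel per list, with the Pparg window as a dashed line. The line lies at the end of the range for C/EBPβ at 0 h (21), C/EBPβ at 6 h (41) and GR (14), and within the range for H3K9ac at 0 h (2), 24 h (2) and 240 h (11).

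The rank depended on where windows began. In windows stepped by 10 kb, leaving out those that touch the Pparg window, 1 other place equalled or passed it for C/EBPβ at 6 h, on chromosome 6 with up to 47 peaks from 16970000 to 17320000. For GR, 2 other places did so, the higher of them also on chromosome 6 with up to 16 peaks from 17010000 to 17360000. For C/EBPβ at 0 h, 1 other place on chromosome 6 reached 23 peaks from 117270000 to 117620000. These stepped windows were added after the lists had been seen. Counting only GR peaks in the stronger part of their list, 0.0401% of the tiled windows, 3 in number and this one included, had at least as many.

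The crowding was local. The neighbouring window before it held 5 C/EBPβ peaks at 0 h, 8 at 6 h and no GR peak, and the neighbouring window after it held 7, 7 and 3. H3K9ac at 240 h was not local in this way: the windows after it held 13 and then 10 regions, against 11 in the Pparg window. Further upstream, the window from 114500000 to 114850000 held 19 C/EBPβ peaks at 6 h and 5 GR peaks, both above the genome mean.

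**Figure D2:**
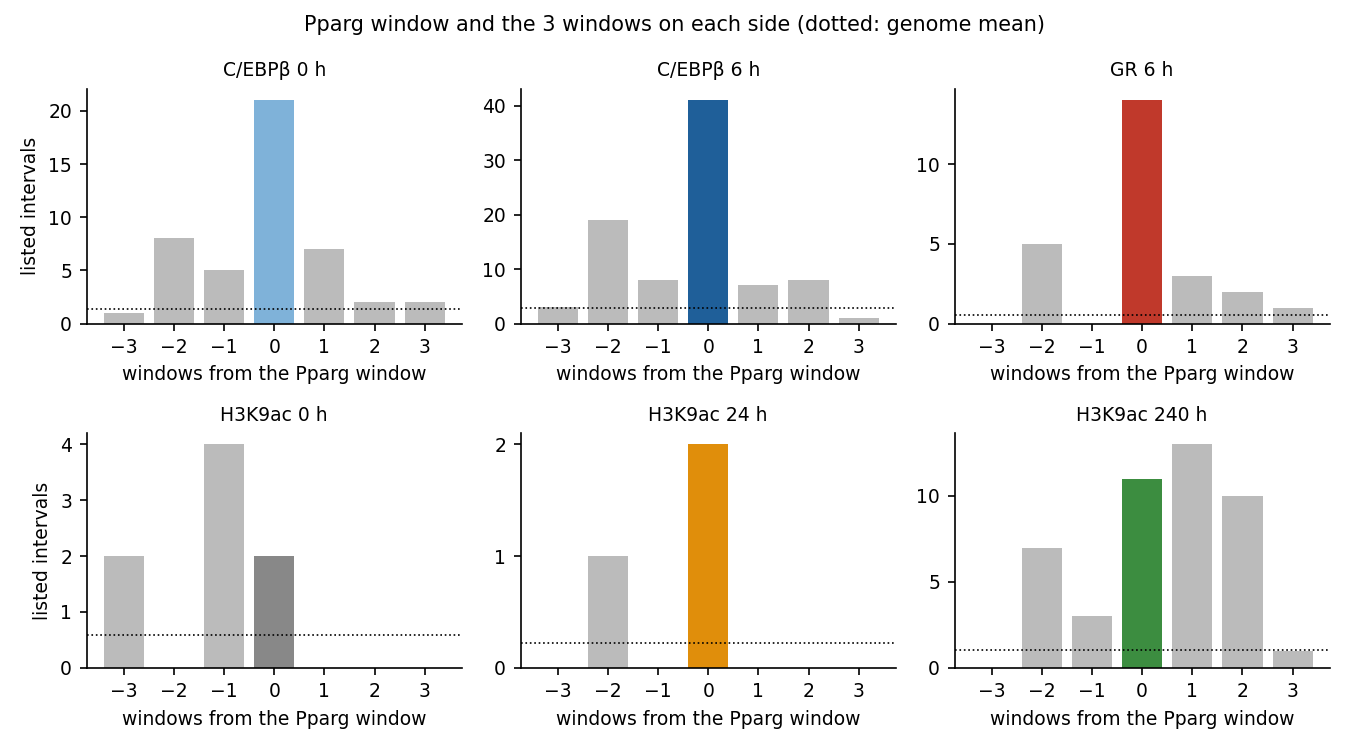
Listed intervals (y axis) in the Pparg window (coloured, position 0) and in the 3 windows of 350 kb on each side (grey), 1 panel per list, with the genome mean dotted. For the factor lists the coloured bar is the tallest (21, 41 and 14), whereas for H3K9ac at 240 h the next window holds more (13 against 11).

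Occupancy of the window before induction was largely carried forward to 6 h. Of the 21 C/EBPβ peaks at 0 h, 19 overlapped a 6 h peak (90.5%, 95% Wilson interval 71.1 to 97.3%), beside 71.3% of the whole 0 h list. The 2 peaks with no counterpart stood at 36.0 and 251.5 kb from the start of the window, with heights of 18, the median of the 0 h list, and 13. Peak height is the authors' whole-number read signal, with 12 as the lowest listed value. Seen from 6 h, 19 of 41 peaks were already listed at 0 h (46.3%, 32.1 to 61.3%, beside 35.7% of the list) and 22 were new. Intervals here and below cover counting error only.

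New C/EBPβ peaks were mostly low, and those carried forward mostly high. The 22 new peaks had heights of 12 to 79 with a median of 16.5, and the 19 older ones had heights of 12 to 94 with a median of 41. The ranges overlap almost wholly. Over the whole 6 h list the medians were 16 and 24, so the new peaks of the window were at the usual level and its older peaks were above theirs.

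GR joined C/EBPβ sites in the window more often than it stood alone. Of the 14 GR peaks, 12 met C/EBPβ of the same time (85.7%, 60.1 to 96.0%), beside 66.6% of the GR list. Among peaks ranked above the median of their lists, 9 of 9 did so, beside 52.3% of the stronger GR peaks. A C/EBPβ peak had been listed before induction under 9 of the 14 (64.3%, 38.8 to 83.7%), beside 26.2% of the list. Conversely, GR was listed on 12 of the 41 C/EBPβ 6 h peaks (29.3%, 17.6 to 44.5%), beside 13.0% of the list. Of these 12 sites, 9 were listed for C/EBPβ at 0 h and 3 were new. In the windows most like this one in their counts, named below, GR was listed on 10 of 40, 7 of 31 and 7 of 16. A share of C/EBPβ 6 h peaks with GR above that of the list was therefore not particular to the Pparg window.

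The 3 factor lists merged into 45 separate sites in the window. All 3 lists met at 9 sites (20%), beside 4.20% of the 24918 sites of the series. C/EBPβ at both times without GR accounted for 10 sites (22.2%, beside 25.2%) and C/EBPβ at 6 h alone for 19 (42.2%, beside 47.0%). Newly listed C/EBPβ with GR made up 3 sites (6.67%, beside 6.43%), GR alone 2 (4.44%, beside 5.31%) and C/EBPβ at 0 h alone 2 (4.44%, beside 11.9%). The share of sites on which all 3 lists met was the one that stood furthest above that of the series, while the share of new C/EBPβ sites with GR lay next to it. The median C/EBPβ 6 h height was 25 in the window and 18 in the list, and the part of height in these shares was not tested.

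C/EBPβ peaks that met GR were high ones. The 12 had heights of 29 to 94 with a median of 54, and the 29 without GR had heights of 12 to 63 with a median of 17. Over the list the medians were 28 and 17. Of the 5 highest C/EBPβ 6 h peaks in the window, 4 overlapped GR and 4 were listed at 0 h. The highest C/EBPβ 6 h peak, from 115389972 to 115390533, reached 94 (27.72-fold enrichment by the authors' measure) and ranked 9 among 20746.

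At most sites listed at both times the C/EBPβ peak was taller at 6 h. The height was greater at 6 h at 14 of 19 sites and smaller at 5, with a median ratio of 1.85 and a range of 0.481 to 3.15. Over 7320 such sites in the series the median ratio was 1.08 and 54.4% were taller at 6 h. With GR the window's sites were taller at 8 of 9 (median ratio 1.92), beside 78.0% and 1.54 in the series. Without GR they were taller at 6 of 10 (median ratio 1.48), beside 50.5% and 1.04. Heights are not stated to be scaled between libraries and depth is unknown, so a ratio of 1 is no mark of equal binding. The ratios of the window can be read only beside those of the series.

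**Figure D3:**
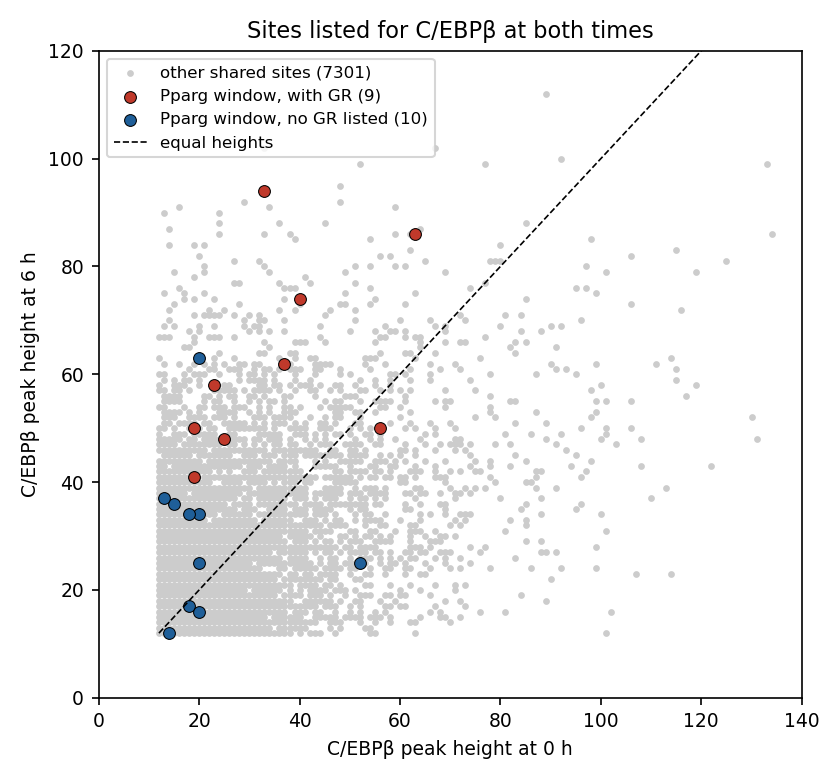
C/EBPβ peak height at 0 h (x axis) and at 6 h (y axis) for every site listed at both times, with the sites of the Pparg window in red where a GR peak overlaps (9) and in blue where none is listed (10), other sites in grey and equal heights as a dashed line. Of the 19 coloured points, 14 lie above the line, among them 8 of the 9 red ones.

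Read from its start, the window opened with its tallest GR peak. This peak, from 115204112 to 115204753 at 4.4 kb, had a height of 96 and ranked 13 among 4007 GR peaks. C/EBPβ lay under it, with 19 at 0 h and 41 at 6 h. It was the one shared site of the window where GR was taller than C/EBPβ at 6 h, with a ratio of 2.34, and the other 11 shared sites had ratios of 0.194 to 0.886. The median GR to C/EBPβ ratio was 0.359 in the window and 0.659 in the series, where 29.2% of shared sites had a taller GR peak. The heights come from different libraries and antibodies and are not stated to be scaled. A taller GR peak therefore does not show more GR than C/EBPβ at a site.

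Beyond that site the first 170 kb carried scattered and mostly low C/EBPβ peaks. Sites listed at both times without GR stood at 13.6 kb (heights of 20 before induction and 25 at 6 h), 79.0 kb (15 and 36), 81.7 kb (20 and 34) and 105.9 kb (18 and 34). GR was listed alone at 54.1 kb, from 115253822 to 115254305, with a height of 16. The site at 134.4 kb, from 115334321 to 115334556, was the next on which all 3 lists met, with C/EBPβ heights of 23 and 58 and a GR height of 13. New C/EBPβ peaks filled much of the rest, and the new peaks between 34.7 and 165.2 kb had heights from 12 to 30.

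This stretch also held 6 of the 11 regions listed at 240 h, none of them with a read count above the median of that list. H3K9ac regions of 240 h lay at 20.6, 28.2, 110.4, 144.7, 151.7 and 160.2 kb, with average read counts of 10, 11, 10, 10, 11 and 9. The median of the list was 11. None of the 6 lay within 1 kb of a factor peak, and the nearest factor peak was 2.36 to 5.92 kb away. A 0 h region from 115258950 to 115260450, with an average read count of 12, began 399 bp after a C/EBPβ 6 h peak of height 18 that was not listed at 0 h.

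**Figure D4:**
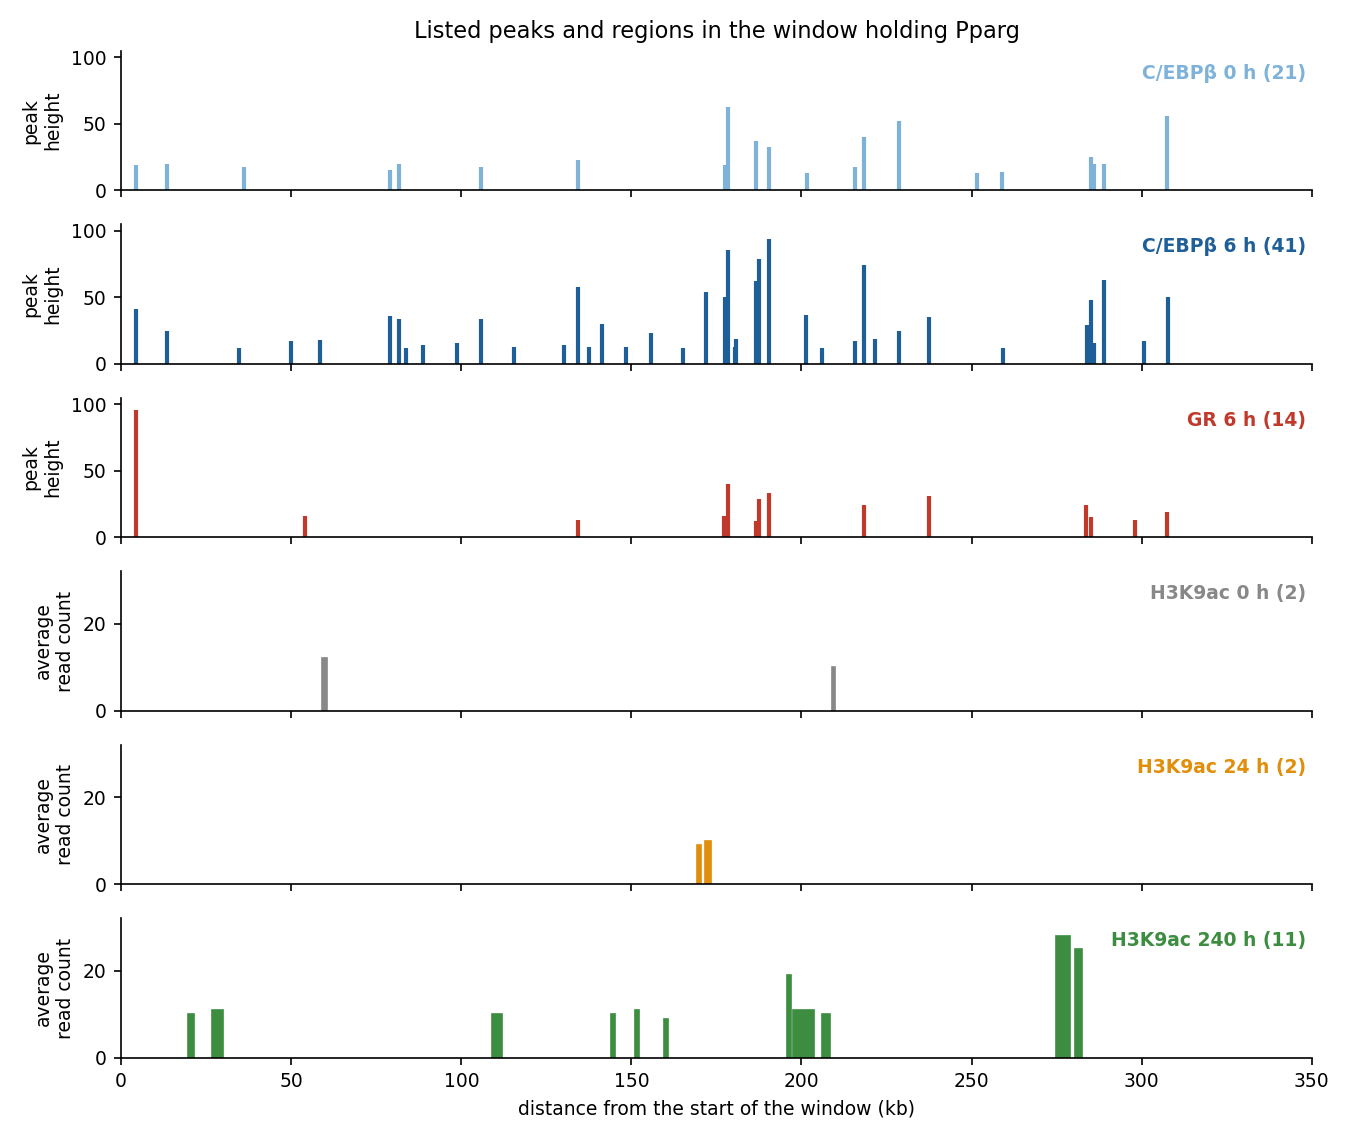
Listed intervals along the window by distance from its start in kb (x axis), with factor peaks drawn at their centres to their peak height and H3K9ac regions drawn to scale at their average read count (y axes). C/EBPβ and GR peaks gather between 177.3 and 190.3 kb, with C/EBPβ heights at 6 h of up to 94 and GR heights of 12 to 40, the 24 h regions stand just before them at 169.9 and 172.6 kb, and the 2 highest 240 h regions stand at 276.9 and 281.6 kb.

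The 24 h acetylated regions stood next to each other just before the shortest run of 5 neighbouring GR peaks in the window. The region from 115369300 to 115370500 had an average read count of 9 and an FDR of 1.32e-06, and the region from 115371700 to 115373450 had 10 and 2.23e-07. The second contained a C/EBPβ 6 h peak from 115371802 to 115372202 that reached 54 (19.09-fold enrichment). That peak was new at 6 h and had no GR peak on it, and among the 19 peaks of that kind in the window it was the tallest, the others having heights down to 12. It ranked 546 among 20746. The first region had no factor peak within 1 kb, and its nearest was this same C/EBPβ peak, 1.30 kb away.

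A cluster of 5 GR peaks followed 3747 bp after the second 24 h region. These 5 lay within 13.4 kb, from 115377197 to 115390570. The list contained 3927 runs of 5 neighbouring GR peaks on a chromosome, with a median span of 1450 kb, and 7 runs (0.178%) were as short as this one or shorter. The same stretch held 7 C/EBPβ peaks at 6 h and 4 at 0 h, and none of its intervals belonged to an H3K9ac list. C/EBPβ heights at 6 h ran from 13 to 94 in the stretch with a median of 62, and from 12 to 74 in the rest of the window with a median of 21. The stretch was singled out after the values had been seen.

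Within the cluster the GR peaks varied in height and all met C/EBPβ. The first, from 115377197 to 115377494, had a GR height of 16 on a C/EBPβ site that went from 19 at 0 h to 50 at 6 h. The second, from 115378051 to 115378563, had a GR height of 40 on the tallest C/EBPβ peak of the window at 0 h, with a height of 63 that became 86. The third, from 115386444 to 115387018, had a GR height of 12, at the list's lower limit, where C/EBPβ went from 37 to 62. Each of these 3 sites was thus in the C/EBPβ list of 0 h. The fourth, from 115387225 to 115387716, had a GR height of 29 on a C/EBPβ peak of height 79 that was not listed at 0 h. It was the tallest of the 6 h peaks with no overlapping 0 h peak, but a 0 h peak of height 37 lay 146 bp from it, and with centres within 1 kb counted as shared it would be listed at both times. The fifth, from 115390044 to 115390570, had a GR height of 33 on the tallest 6 h C/EBPβ peak, where the height went from 33 to 94, a ratio of 2.85. The cluster also contained 2 low C/EBPβ peaks with no GR, at 180.4 and 180.7 kb, with heights of 13 and 19.

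After the cluster came a group of 240 h regions with one 0 h region beside them. The first began 5080 bp after the last GR peak of the cluster, from 115395650 to 115396950, with an average read count of 19. A broad region followed from 115397500 to 115403650, 6150 bp wide with an average read count of 11, and contained a C/EBPβ site whose height went from 13 to 37. A region from 115406000 to 115408400, with a value of 10, overlapped a C/EBPβ 6 h peak at the lowest listed height of 12. The 0 h region from 115408900 to 115409950, with a value of 10, lay 500 bp beyond it. Regions called at opposite ends of the time course stood side by side here without overlap. The authors called these regions as enriched at a given time against another, so the lack of overlap cannot be read as a property of this window. How often 0 h and 240 h regions overlap over the whole lists was not tested.

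Farther along, C/EBPβ sites differed in how their listed heights compared between 0 and 6 h. At 218.5 kb, from 115417991 to 115418930, all 3 lists met, with C/EBPβ heights of 40 and 74 and a GR height of 24. The site at 228.6 kb, from 115428333 to 115428924, had the largest fall in listed height, from 52 at 0 h to 25 at 6 h, and no GR peak. Another 2 sites without GR also had lower 6 h values, at 215.8 kb (18 and 17) and 259.1 kb (14 and 12). Their ratios of 0.944 and 0.857 lay between the quartiles of the series, 0.783 and 1.54. The ratios of 1.85 at 218.5 kb and 0.481 at 228.6 kb lay outside them. At 237.5 kb, from 115437123 to 115437780, a GR peak of height 31 met a new C/EBPβ peak of height 35.

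Among the listed regions of the window, which leave out start sites, those with the highest average read counts lay near its far end. The 240 h region from 115474800 to 115478950 had an average read count of 28 and ranked 21 among 7845, and the region from 115480500 to 115482600 had a value of 25 and ranked 55. Both were listed with an FDR of 0. The second ended 903 bp before a GR peak of height 24, from 115483503 to 115483865, which lay on a new C/EBPβ peak of height 29. The first had its nearest factor peak 4.55 kb away.

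Factor sites then ran on to 307.5 kb with no further region in the H3K9ac lists, which leave out start sites and steady acetylation. All 3 lists met at 285.2 kb, with C/EBPβ heights of 25 and 48 and a GR height of 15. C/EBPβ without GR was listed at 286.0 kb (20 and 16) and at 288.9 kb, from 115488785 to 115489114, where it went from 20 to 63, the largest ratio of the window at 3.15. GR stood alone at 297.9 kb with a height of 13. The last site, at 307.5 kb from 115507196 to 115507880, carried all 3 lists with C/EBPβ heights of 56 and 50 and a GR height of 19, and it was the one GR site of the window where the C/EBPβ value at 6 h was lower than at 0 h. No list had an interval in the remaining 42.1 kb.

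Of the 15 acetylated regions, 5 lay next to a factor peak. A peak of any of the 3 factor lists was at a gap under 1 kb from 1 of the 2 regions of 0 h (beside 28.8% of that list), 1 of the 2 of 24 h (39.7%) and 3 of the 11 of 240 h (15%). For C/EBPβ at 6 h the counts were 1, 1 and 2, beside 24.1%, 34.9% and 12.6%. GR was near 0, 0 and 1 of them, beside 3.93%, 21.2% and 2.31% of the lists. For C/EBPβ at 0 h the counts were 0, 0 and 1, beside 17.9%, 11.6% and 7.84%. Counted from the factor side, 0 of the 14 GR peaks were near a 24 h region, beside 8.61% of the GR list, and 1 of 41 C/EBPβ 6 h peaks did, beside 3.11%. With so few members, none of these counts can be set apart from the share of its list. At a gap under 10 kb, C/EBPβ at 6 h was near 2 of 2, 2 of 2 and 11 of 11 regions, beside 51.3%, 66.4% and 35.2% of the lists of 0, 24 and 240 h. GR was then near 2, 2 and 6 of them, beside 13.6%, 40.4% and 8.46%, and C/EBPβ at 0 h near 1, 2 and 9, beside 40.1%, 36.6% and 25.6%. The median gap from a 240 h region to the nearest factor peak was 2.84 kb, beside 13.9 kb over that list. This nearness goes with the number of factor peaks in the window, and its part was not tested.

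The windows most like this one in their 6 counts were taken by the smallest distance over log2(count + 1). The nearest, on chromosome 6 from 17200000 to 17550000, held 10 C/EBPβ peaks at 0 h, 40 at 6 h, 11 GR peaks, and 2, 3 and 9 H3K9ac regions at 0, 24 and 240 h. It differed most from the Pparg window in C/EBPβ at 0 h, with 10 peaks against 21. The next, on chromosome 6 from 16850000 to 17200000, held 11, 31 and 8 factor peaks and 1, 2 and 3 H3K9ac regions. The one after, on chromosome 8 from 11250000 to 11600000, held 12, 16 and 10 factor peaks and 0, 2 and 10 H3K9ac regions. C/EBPβ 6 h peaks that overlapped GR numbered 10, 7 and 7 in these windows, in that order, against 12 in the Pparg window.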

How the data were processed

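The 6 lists came from 6 ChIP-seq libraries, 1 per group, with groups and times taken from the sample titles. The 4 input libraries were not analysed here. Per the labels' protocols, the authors placed 36 bp reads on mm8 with ELAND, allowing 2 mismatches, and kept uniquely placed reads once per start coordinate, which leaves repeats uncovered and caps tall peaks. No source used here gives the caller, its threshold or any use of input. The deposited factor lists give a fold enrichment (a ratio over an undescribed background) and a peak height (a read signal). The deposited H3K9ac lists give an FDR (a q-value) and an average read count (a signal). Per the file headers, another deposited file lists 6 regions of input bias, and 0 lie in the window. Library depth is unknown, and absence from a list does not show absence of signal. With 1 library per group no p-value across cultures was computed.

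Members were found by overlap of at least 1 bp with the window, and lists were compared by the same overlap. "Near" means a gap under 1 kb. The genome was tiled in windows of 350 kb up to the highest listed coordinate of each chromosome. Shares have 95% Wilson intervals. Ranks use height, then fold enrichment, or read count, then FDR. Named are all members of lists with 15 or fewer, and of the C/EBPβ lists the tallest, those on GR, those in both lists and those next to 24 h regions. The window, lists and rules were chosen with earlier results of these data known. The code was tested on simulated data, where 20 of 20 planted window counts and 315 of 315 planted overlap states were returned. Python 3.11.15, numpy 2.4.6, pandas 2.3.3, scipy 1.17.1 and matplotlib 3.10.9 were used.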

Additional observations from a re-analysis of the deposited data

How the results depend on the processing

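No paired analysis was possible because each group is 1 library, and no replicate could be left out. Of the alternatives fixed in advance, 22 window ranks stayed within the 95% interval of the reported percentage and 8 moved, 15 shares stayed and 1 moved, and 4 counts of acetylated regions near a factor stayed within 1.5 times and 5 moved. All 8 ranks that moved were those of H3K9ac lists. Those of the 3 factor lists all stayed, but their interval is wide (0.00236 to 0.0758%). For GR, 3 of 7473 windows still counted as staying. All 6 ranks in windows stepped by 10 kb, added later, stayed within their intervals. For the 3 factor lists only the percentage stayed, inside the same wide interval: other places passed the Pparg window in stepped windows. The percentage of windows with at least as many H3K9ac regions over windows with any listed interval was 19.4%, 7.03% and 2.70% (0, 24 and 240 h), where fewer windows count by construction. By base pairs covered it was 3.45% at 24 h and 1.28% at 240 h. With the stronger regions alone it was 15.5%, 1.79% and 2.03% at 0, 24 and 240 h. With the stronger peaks of both lists, 100.0% of GR peaks in the window (9 of 9) overlapped C/EBPβ at 6 h, beside 52.3% of the stronger GR list. Within 10 kb, 15, 10 and 12 acetylated regions had a C/EBPβ 6 h, GR and C/EBPβ 0 h peak; over the 3 lists those shares ran from 35.2 to 66.4%, 8.46 to 40.4% and 25.6 to 40.1%. By direct overlap, 0 had a GR peak, and with the stronger peaks alone 0 had a C/EBPβ 0 h peak. The members formed 1 block at gaps of 20 kb and 6 at 10 kb. Where no cause is named above, the cause was not tested. Unknown depth limits every statement on a peak missing from a list.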
